A study of Elopichthys bambusa with 12 samples.

Results

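Among the liver RNA sequences of yellowcheek carp (Elopichthys bambusa, a large predatory freshwater cyprinid), 99 of 42353 assembled features were high in livers of fish fed for 8 days and low in every other group. They were chosen by their own values. Levels were expressed as CPM (the count of a feature relative to the library total, scaled to a common size), and a feature belonged to the set where its fed 8-day mean was 20 CPM or more. The means of the other 3 groups each had to be at most 1/8 of that mean, and each of the 3 fed 8-day libraries had to lie above all other 9 libraries. These 99 features were 2.99% of the 3307 features at 20 CPM or more in fed 8-day livers. The differences between fed 8-day livers and the other groups were fixed by this choice and are given as a description, without a test.

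The study compared 4 groups of 3 liver libraries each: fish deprived of food for 8 days, fish deprived of food for 28 days, and a fed group for each of these times that received a commercial diet in 2 meals a day. No genetic change or drug was part of the design, and the labels give neither the age of the fish nor whether a library came from 1 fish or from several, so a p-value covers only the variation among these libraries. The libraries held 16785827 to 19901335 estimated counts, and at this depth 3 counts are 0.151 to 0.179 CPM. The files do not pair the feature identifiers with gene names, so no feature is given a function here and liver markers were not checked.

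In fish as in other vertebrates the liver receives the nutrients of a meal from the gut, stores them as glycogen and fat, and makes most of the proteins of the blood plasma. During a fast it turns to releasing glucose and to burning fat and protein, and the mRNAs of the enzymes for storage and for release change with this. A species without a genome used for counting is studied by joining the reads into contigs. The identifiers here have the form written by the Trinity assembler, in which DN and c number a cluster of contigs, g a gene-like group within it and i a variant of that group. Each identifier ends in a further number from 1 to 4, which is not part of Trinity's usual form.

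Before the results, 2 features of the libraries matter. The first principal component of the log-scaled levels (45.8% of the variance) set the fed 8-day libraries apart, with scores of 117.6 to 119.1 against -62.9 to -18.3. Their counts also lay on shorter features: the count-weighted mean length was 2216 to 2331 nucleotides in fed 8-day libraries and 2517 to 2667 in the other 9, and the part of this in the set was not tested. On the third component (8.54%), 3 fasted libraries (8 days, replicate 2; 28 days, replicates 2 and 3) lay together and away from the other 3, with scores of 30.8 to 33.7 against -56.1 to -41.5. Without these 3 libraries the rule found 89 features, 86 of them among the 99.

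The 99 features together took 1.92% ± 0.0126 of all counts in fed 8-day livers (mean ± SD, n = 3). They took 0.0459% ± 0.0097 in fasted 8-day, 0.0782% ± 0.000735 in fed 28-day and 0.0534% ± 0.01 in fasted 28-day livers. In CPM the sums were 19293, 19060 and 19258 in the fed 8-day libraries and 783, 789 and 774 in the fed 28-day ones. They were 564, 437 and 374 after 8 days and 592, 418 and 592 after 28 days without food. The fed 8-day libraries were thus alike in the sum, and the fed 28-day libraries lay above all 6 fasted ones. No library is from the start of the trial. Words such as left, kept, remainder and fell therefore compare groups, and whether a level declined or rose was not tested. In whole-liver RNA, fewer cells of a type and less RNA per cell cannot be told apart.

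**Figure D1:**
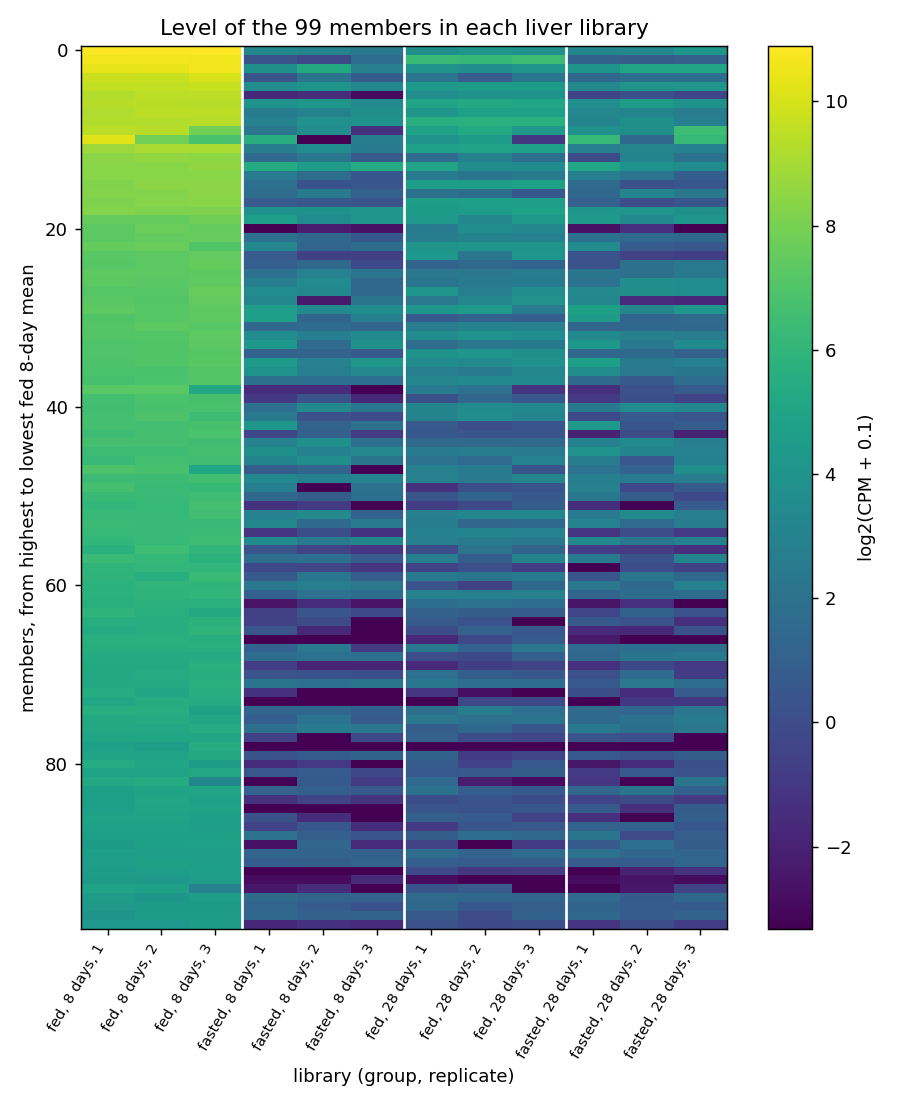
Level of each of the 99 features (rows, from the highest to the lowest fed 8-day mean) in the 12 libraries (columns, by group and replicate), as log2(CPM + 0.1) on the colour scale. Within each row the fed 8-day cells are brighter than those of the other 9 columns, as the rule asked. The other 9 columns hold a low remainder that differs from feature to feature.

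Single features differed widely in level. The fed 8-day mean ran from 20.2 to 1824 CPM with a median of 86.6. Of the set, 3 features were over 1000 CPM, 41 between 100 and 1000 and 55 under 100. The 12 highest gave 55.6% of the summed level.

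The highest was TRINITY_DN16815_c1_g2_i21_3 (4593 nucleotides). It was at 1764, 1809 and 1900 CPM in the fed 8-day libraries and at 9.98, 8.05 and 5.13 in the fasted 8-day ones. In the fed 28-day libraries it was at 13.4, 18.2 and 14.8 CPM, and in the fasted 28-day ones at 9.13, 9.92 and 17.6. Its fed 8-day mean was 118 times the next highest group mean. The fasted 8-day libraries lay below the fed 28-day ones, and the fasted 28-day libraries overlapped with both. Among all features it ranked 74 by fed 8-day CPM, so 73 features of the assembly were higher there.

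TRINITY_DN16765_c0_g2_i1_3 (3481 nucleotides) was second, at 1536, 1579 and 1552 CPM in the fed 8-day libraries. In the fed 28-day libraries it was still at 76.7, 70.5 and 85.2 CPM. In the fasted libraries it was at 1.18, 0.79 and 3.21 CPM at 8 days and at 2.01, 1.7 and 1.98 at 28 days. Here the other 9 libraries fell apart into fed and fasted without overlap, so that the levels formed 3 steps: fed 8 days, fed 28 days and fasted.

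TRINITY_DN16588_c0_g2_i15_3 (7616 nucleotides) was at 1336, 1388 and 1574 CPM in the fed 8-day libraries. Its remainder followed the division among the fasted libraries: it was at 39.7, 34 and 34.5 CPM in the 3 that lay together and at 13.3, 7.07 and 16 in the others, beside 12.6 to 17.4 in the fed 28-day libraries. TRINITY_DN16419_c0_g1_i1_3 (1983 nucleotides) was at 847, 827 and 1031 CPM in the fed 8-day libraries. In the other 9 it was at 1.2 to 4.74 CPM, with all groups overlapping. Its fed 8-day mean was 252 times the next group mean, and among the features with a count in another group no higher ratio was found.

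The next 5 of the 12 were steady in fed 8-day livers. TRINITY_DN16459_c0_g1_i2_3 was at 785 ± 26.4 CPM (mean ± SD, n = 3), TRINITY_DN14359_c0_g1_i5_4 at 675 ± 54.5, TRINITY_DN14716_c3_g1_i19_4 at 670 ± 10.1, TRINITY_DN14485_c0_g1_i1_1 at 664 ± 63.7 and TRINITY_DN16548_c0_g1_i6_3 at 623 ± 22.8. Each of these had its next highest mean in fed 28-day fish, between 14.7 and 50.7 CPM. TRINITY_DN9937_c0_g1_i1_3, the last of the 12, was at 511 ± 55.3 CPM and had 28.5 ± 1.45 in fed 28-day fish.

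**Figure D2:**
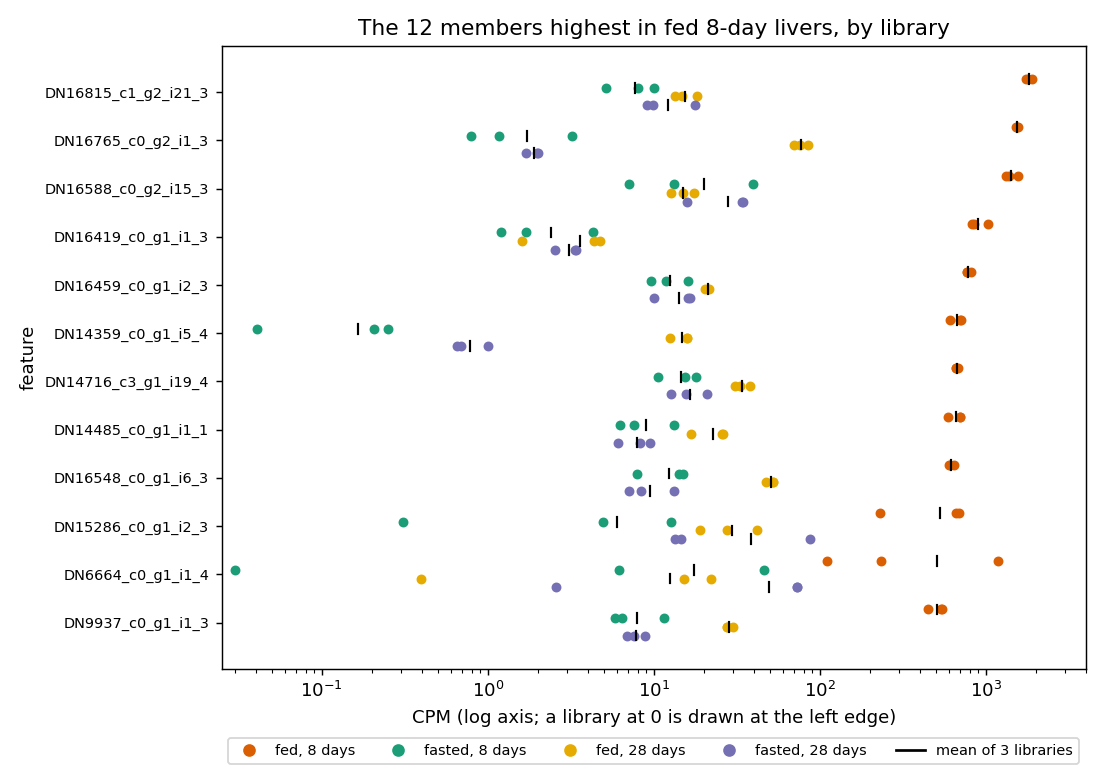
CPM (horizontal, log axis) of the 12 features with the highest fed 8-day means, 1 row each; points are libraries coloured by group and black bars are the means of 3 libraries. The fed 8-day points lie to the right of all others, most of them close together, whereas TRINITY_DN6664_c0_g1_i1_4 is spread from 111 to 1193 CPM within that group.

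The other pair of the 12 varied strongly between fed 8-day livers. TRINITY_DN6664_c0_g1_i1_4 (1061 nucleotides) was at 1193, 234 and 111 CPM there, and at 73.1, 2.58 and 73 CPM in the fasted 28-day libraries. Its lowest fed 8-day library was 1.52 times its highest other library, the narrowest gap of any member. TRINITY_DN15286_c0_g1_i2_3 (1972 nucleotides) was at 694, 663 and 230 CPM in the fed 8-day libraries and at 14.7, 13.4 and 87.8 in the fasted 28-day ones. In these 2 features the place in the set rests on values that differ several-fold within a group.

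Over the whole set the coefficient of variation between fed 8-day libraries had a median of 9.68%, beside 8.59% for the 3208 other features at 20 CPM or more there. It was over 30% in 8 features (8.08%, against 5.08% of the others). In 6 of these 8, replicate 3 lay at 15.6% to 33.9% of the mean of replicates 1 and 2. These 6, chosen after their values were seen, were TRINITY_DN6664_c0_g1_i1_4, TRINITY_DN15286_c0_g1_i2_3, TRINITY_DN4289_c0_g1_i1_3, TRINITY_DN16875_c0_g2_i1_3, TRINITY_DN16839_c6_g2_i4_3 and TRINITY_DN19749_c0_g1_i1_3. Among the 99, 6.06% fell under 50% of that mean in replicate 3, against 3.15% of the other features. Even so, 58 features were highest in replicate 3, 25 in replicate 2 and 16 in replicate 1, and the shares among the other features were 55.8%, 23.5% and 20.7% (the set had 58.6%, 25.3% and 16.2%).

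Levels of different features are compared per length, in the FPKM deposited by the authors (fragments per kilobase of feature relative to library size). On this scale the order changed. TRINITY_DN15088_c0_g1_i1_4, a feature of 321 nucleotides, led with 507 ± 28.8 FPKM in fed 8-day livers (n = 3). TRINITY_DN6664_c0_g1_i1_4 followed with 503 ± 583, and TRINITY_DN13349_c0_g1_i1_4 (731 nucleotides) with 484 ± 21.8. TRINITY_DN16815_c1_g2_i21_3, first in CPM, was at 411 ± 10.5 FPKM. The first of these was at 163, 146 and 162 CPM in fed 8-day libraries and at 5.64 to 26.7 in the other 9. TRINITY_DN13349_c0_g1_i1_4 was at 332, 329 and 365 CPM and at 11.3 to 42.6 in the other 9. Both kept a larger remainder than most of the set, with fed 8-day means 9 and 9.58 times the next group mean.

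The features of the set were 315 to 10161 nucleotides long with a median of 1598. The median was 598 nucleotides over all features and 1709 over the others at 20 CPM or more in fed 8-day livers. Under 500 nucleotides were 9 features, 9.09% of the set, beside 4.27% of those others. Over 2000 nucleotides were 36, or 36.4%, beside 39.9%. The share of short features in the set was thus higher than among the others at 20 CPM or more, and the median was lower. Those others share only this minimum with the set and were not matched to it by level.

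Few features of the set were absent elsewhere. A count above 0 was found in all other 9 libraries for 78 of the 99. The median level was 2.41 CPM in fasted 8-day, 3.83 in fed 28-day and 2.97 in fasted 28-day livers. The fed 8-day mean was 8 to 16 times the next group mean in 51 features and 16 to 64 times in 37. In the other 11 it was 64 times or more, or the other groups held no count. The next highest group was fed 28 days for 58 features, fasted 28 days for 21 and fasted 8 days for 19, and 1 feature had no count in any of these groups.

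TRINITY_DN14666_c0_g4_i1_4 (1068 nucleotides) was alone in having no count in any of the other 9 libraries. It was at 28.2, 25.3 and 44.7 CPM in the fed 8-day libraries. Against a floor of 3 counts per library this is at least 206-fold higher than in fasted 8-day, 195-fold higher than in fed 28-day and 205-fold higher than in fasted 28-day livers. In fasted 8-day livers 4 further features had no count. One of them, TRINITY_DN16815_c1_g6_i1_3, belongs to the same cluster as the highest feature of the set and was at 23.4, 24.2 and 26 CPM in fed 8-day libraries.

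The rule put a ceiling on both 28-day groups but asked nothing about the difference between them, so this difference was tested. The 32212 features that passed a filter on low counts were fitted together in edgeR, with the quasi-likelihood test and Benjamini-Hochberg adjustment over all of them. All 99 passed this filter, 8 of them only through libraries other than the 28-day ones. In 25 features (25.3%) the level was lower in fasted than in fed 28-day livers, where 5.79% of all features tested were called lower. Only 2 were higher, where 4.14% of all features were, and 72 did not pass. Among features with 1 to 20 CPM in the higher of these groups, 4.67% were called lower and 4.37% higher. Of the 91 features that passed the filter on the 28-day libraries alone, 24 (26.4%) were lower and 2 (2.2%) higher, where 6.77% and 4.65% of all features passing in this way were. The rule held both 28-day means under the same ceiling, so these shares describe the set and are no test of it. The median log2 fold change of the 99 was -0.59, beside 0.10 for all features. Over the alternatives 19 to 30 of the 99 were called lower, while the share of all features called in either direction ran from 3.02% to 16.9%. The count of 30 came with DESeq2, where that share was 16.9%. Without the 3 fasted libraries that lay together 21 were lower and 6 higher, and the share was 3.02%. Called higher were 1 to 6 of the 99 over the alternatives, so the low count of higher calls depends on the libraries used.

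The 25 features fell by 0.90 to 6.53 on the log2 scale, 11 of them by 8-fold or more. In all 25 the 3 fasted 28-day libraries lay below the 3 fed 28-day ones. Over the 99, the fasted 28-day libraries lay wholly below the fed ones in 28 features and wholly above in 8, where 9.37% and 26.1% of all features tested did. These counts are on plain CPM, without the further scaling of libraries used in the test. With library size alone the median log2 change over all features was 0.45, beside 0.10 on the scale of the test. The counts and the calls are thus on unlike scales. As a share of the fed 8-day mean, these 25 features had a median of 5.13% left in fed 28-day, 1.36% in fasted 8-day and 1.2% in fasted 28-day livers. Those that did not pass had 4.44%, 3.78% and 5.62%. The split was made by the 28-day difference itself. The fed and fasted 28-day shares of both parts, and the lack of overlap in the 25, therefore describe the split and are no test of it.

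TRINITY_DN14823_c0_g1_i1_3 (3307 nucleotides) fell most. It was at 161, 198 and 188 CPM in fed 8-day, and at 5.91, 12.2 and 9.88 in fed 28-day libraries. It was at 0.0617, 0.276 and 0 CPM in the fasted 28-day ones (log2 fold change -6.53 ± 0.58 SE, n = 3 each, edgeR adjusted p = 0.000109). The fasted mean rests on 7 counts and lies under 3 counts per library, so the size of the fall is uncertain. TRINITY_DN16771_c7_g1_i3_3 (1598 nucleotides) likewise rests on 7 fasted counts. It was at 3.37, 4.13 and 3.16 CPM in fed 28-day and at 0.0738, 0.27 and 0 in fasted 28-day libraries (-5.35 ± 0.52, edgeR adjusted p = 0.000189). TRINITY_DN16765_c0_g2_i1_3, with its 3 steps described above, fell by 5.68 ± 0.48 (edgeR adjusted p = 8.08e-05).

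Of the 12 highest features 7 were among the 25. TRINITY_DN14359_c0_g1_i5_4 (4369 nucleotides) was at 12.5, 16 and 15.8 CPM in fed 28-day livers and at 0.653, 1.01 and 0.688 in fasted 28-day ones (log2 fold change -4.56 ± 0.24 SE, edgeR adjusted p = 4.63e-06). It was at 0.0408 to 0.249 CPM in fasted 8-day livers. TRINITY_DN16548_c0_g1_i6_3 fell by 2.77 ± 0.25 and TRINITY_DN9937_c0_g1_i1_3 by 2.23 ± 0.18 (edgeR adjusted p = 0.000111 and 4.63e-05). TRINITY_DN14485_c0_g1_i1_1 fell by 1.86 ± 0.32 and TRINITY_DN14716_c3_g1_i19_4 by 1.41 ± 0.18 (edgeR adjusted p = 0.00524 and 0.000903). TRINITY_DN16459_c0_g1_i2_3 fell by 0.93 ± 0.17 (edgeR adjusted p = 0.00602), and this call was lost with library size alone as the scale and with limma on log2 FPKM. The call of TRINITY_DN14485_c0_g1_i1_1 was lost without the 3 fasted libraries that lay together (edgeR adjusted p = 0.128; over its alternatives 7.2e-07 to 0.128).

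**Figure D3:**
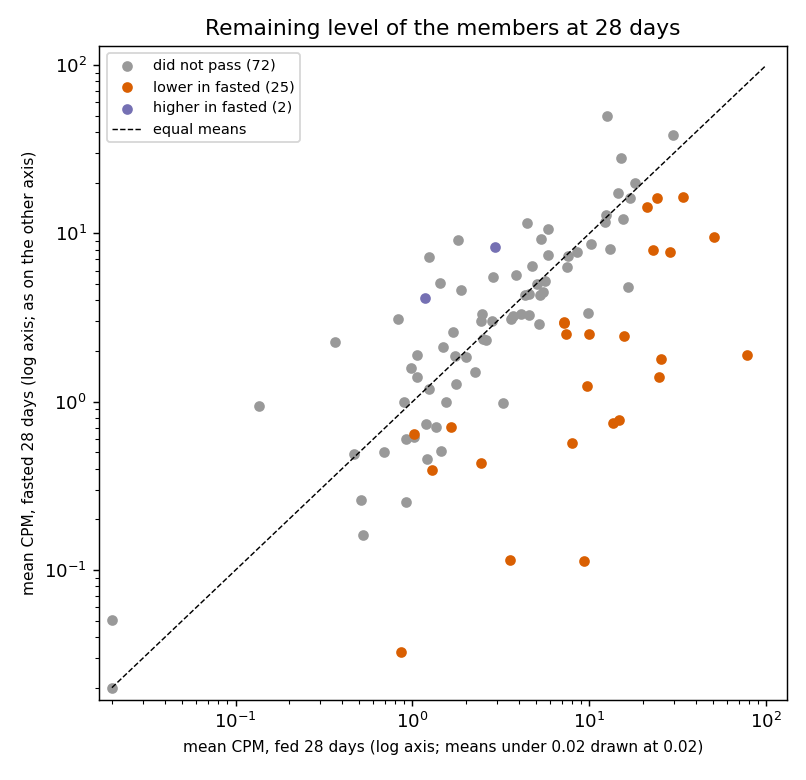
Mean CPM of the 99 features in fed 28-day (horizontal) and fasted 28-day livers (vertical), both on log axes, coloured by the edgeR call; means under 0.02 are drawn at 0.02 and the broken line marks equal means. The 25 features called lower lie below the line, up to a fed 28-day mean of 77.4 CPM, while most of the 72 that did not pass lie along it.

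The 2 features that were higher in fasted than in fed 28-day livers were TRINITY_DN8111_c0_g1_i1_2 and TRINITY_DN12031_c0_g1_i3_4. The former (1797 nucleotides) was at 42.2, 43.6 and 43.5 CPM in fed 8-day, 0.913, 0.768 and 1.85 in fed 28-day and 2.74, 4.52 and 5.19 in fasted 28-day libraries (log2 fold change 1.49 ± 0.29 SE, edgeR adjusted p = 0.00866). Without the 3 fasted libraries that lay together it did not pass (edgeR adjusted p = 0.199; over its alternatives 5.66e-05 to 0.199). The latter (2795 nucleotides) was at 2.9, 2.97 and 2.89 CPM in fed and 7.51, 10.5 and 6.73 in fasted 28-day libraries (1.14 ± 0.31, edgeR adjusted p = 0.0431). It did not pass in 10 of the 12 fits that left out 1 library, controls of either day among them (over all its alternatives edgeR, DESeq2 or limma adjusted p = 0.00335 to 0.145).

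Between the 2 fasted groups no feature of the set passed the edgeR test, nor did any of the 32212 (0%). At an unadjusted p under 0.05 there were 11 of the 99, beside 2.78% of all features. DESeq2 called 1 (0.0995% of all features) and limma on log2 FPKM called 0. Without fasted 28-day replicate 2 edgeR called 1 (0.00295% of all features). Of the 94 features with counts in both fasted groups, 78 had means within 2-fold of each other. The share among all features was not determined, so this count cannot be read as a trait of the set. It leaves out the 5 features with no count in fasted 8-day livers, of which TRINITY_DN26118_c0_g1_i1_4 had 66 counts in fasted 28-day livers. Over the 99 the edgeR log2 fold change ran from -1.47 to 7.40. A missed threshold does not show that the 2 groups were alike.

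The last numbers of the identifiers were unevenly represented. Of the 99, 45 ended in 3 (45.5%), 47 in 4 (47.5%), 5 in 1 (5.05%) and 2 in 2 (2.02%). Among all 3307 features at 20 CPM or more in fed 8-day livers these shares were 31.1%, 29.8%, 21.1% and 17.9%. Read the other way, 4.37% of those ending in 3 and 4.76% of those ending in 4 were in the set, but 0.716% of those ending in 1 and 0.338% of those ending in 2. Number 3 also took slightly more of all counts in fed 8-day libraries, 26.8% to 28.3% against 22.9% to 25.8% in the other 9. For number 4 the ranges overlapped, at 26% to 26.9% in fed 8-day libraries and 25.3% to 26.2% in the other 9. Number 1 took 26.3% to 27.6% in fed 8-day libraries and 28.8% to 33.4% in the other 9. Whether the numbers mark separate assemblies, and what part this has in the set, was not tested.

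**Figure D4:**
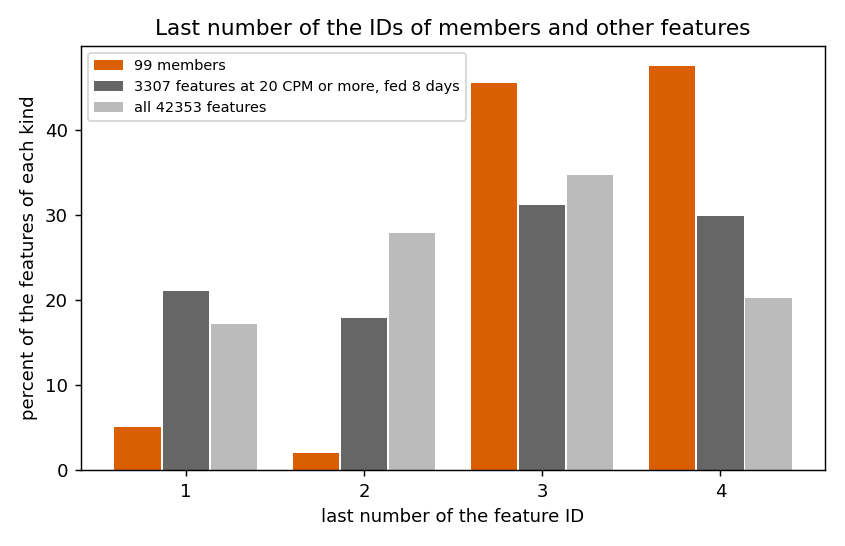
Percent of features (vertical) by the last number of the identifier (horizontal), for the 99 features of the set, the 3307 features at 20 CPM or more in fed 8-day livers and all 42353 features. Numbers 3 and 4 make up 45.5% and 47.5% of the set, and numbers 1 and 2 make up 5.05% and 2.02%.

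The features of numbers 3 and 4 differed from each other in size and ratio. Those ending in 3 had a median of 103 CPM in fed 8-day livers, 1421 nucleotides and a ratio of 19.5 to the next group mean. Those ending in 4 had 75.1 CPM, 1826 nucleotides and a ratio of 12.6. In both, replicate 3 was most often the highest of the fed 8-day libraries, in 27 of 45 and 29 of 47. Among the other features at 20 CPM or more with these numbers it was highest in 51.4% and 57.8%, so this is no trait of the set. The medians of those other features by number were not determined.

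Of the 7 features ending in 1 or 2, the 2 highest of each number, of which TRINITY_DN8111_c0_g1_i1_2 is described above, were these. TRINITY_DN14485_c0_g1_i1_1 was at 591, 702 and 700 CPM in the fed 8-day libraries, at 6.1 to 13.3 in the fasted ones and at 16.9, 25.8 and 26.1 in the fed 28-day ones. TRINITY_DN16327_c0_g1_i1_1 (1172 nucleotides) was at 136, 157 and 146 CPM in fed 8-day, 6.31, 8.08 and 7.73 in fed 28-day and 2.35 to 2.98 in fasted libraries. TRINITY_DN27861_c0_g1_i1_2 (1276 nucleotides) was at 107, 118 and 136 CPM in fed 8-day, 8.81, 10.5 and 10.5 in fed 28-day and 1.47 to 3.66 in fasted libraries. These 3 kept more in fed 28-day than in fasted livers, without overlap. At 28 days TRINITY_DN16327_c0_g1_i1_1 was lower in fasted livers by 1.89 ± 0.15 and TRINITY_DN27861_c0_g1_i1_2 by 2.30 ± 0.29 on the log2 scale (edgeR adjusted p = 4.42e-05 and 0.000975).

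A further question was whether the other contigs of the same cluster moved with the set. Each Trinity gene was represented by a single feature, so partners were sought among features with the same DN and c numbers and the same last number (a definition chosen late, with the values known). The 99 features lay in 95 clusters, and 27 of them (27.3%) shared a cluster with another feature, beside 21.4% of the other features at 20 CPM or more in fed 8-day livers. In 4 clusters 2 features of the set lay together. In 21 clusters there were 45 partners outside the set. Reads may be divided between contigs of a cluster, and clusters with many partners weigh more than others in the counts that follow.

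For clusters with 2 features of the set the levels are given in CPM, which does not compare contigs of unlike length. TRINITY_DN16419_c0_g2_i3_3 was at 100, 117 and 107 CPM in fed 8-day livers beside the 827 to 1031 of its cluster neighbour, and both were under 5 CPM in the other 9 libraries. TRINITY_DN12550_c0_g1_i1_3 (408 nucleotides) was at 141, 144 and 192 CPM and TRINITY_DN12550_c0_g2_i1_3 (1645 nucleotides) at 74.1, 74.2 and 92.7. TRINITY_DN14669_c2_g1_i19_4 (7022 nucleotides) was at 324, 330 and 334 CPM and TRINITY_DN14669_c2_g5_i1_4 (2434 nucleotides) at 182, 189 and 130. Per length their order was reversed, with fed 8-day means of 48.5 and 71.1 FPKM. In this last cluster the remainders parted: the longer contig was at 4.28 to 5.88 CPM and the shorter at 16.5 to 16.7 CPM in fed 28-day libraries.

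Most partners were low, 33 of the 45 under 20 CPM in every group. Of the 43 that could be tested, 23 (53.5%) were lower in fasted than in fed 8-day livers, where 12.1% of all features tested were lower, and 5 (11.6%) were higher, where 13.3% were. Against the same fed 8-day libraries, fed 28-day livers were lower in 17 partners (39.5%, against 12.8% of all features) and higher in 5 (11.6%, against 14.3%). These counts cannot be read against those shares, since 15 of the 43 passed the low-count filter only through the fed 8-day libraries and could hardly be called other than lower. Of the 28 that passed it without those libraries, 10 (35.7%) were lower and 5 (17.9%) higher in fasted 8-day livers, beside 11.7% and 14.1% of all features passing in this way. In fed 28-day livers 5 (17.9%) were lower and 5 higher, beside 12.6% and 15.1%, and the median log2 fold changes of these 28 were -0.11 and -0.04 (edgeR). At most 1/8 of their fed 8-day mean was left in all other groups for 15 of the 45. All of these were under 20 CPM in fed 8-day livers and so missed the set by level.

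Some partners were abundant in all groups. TRINITY_DN14509_c1_g1_i7_4 (5906 nucleotides) was at 764, 798 and 893 CPM in fed 8-day libraries and at 850 to 1189 in the other 9. It did not pass against either group (log2 fold changes 0.34 ± 0.19 SE for fasted 8-day and 0.37 ± 0.19 for fed 28-day livers, edgeR adjusted p = 0.215 and 0.171). In 2 of its 21 alternatives it was called higher in fasted 8-day livers, 1 of them without fasted 8-day replicate 2 (edgeR adjusted p = 0.0303). Over all these alternatives the edgeR, DESeq2 or limma adjusted p was 0.0202 to 0.649. Its neighbour in the set, TRINITY_DN14509_c1_g2_i3_4, was at 136 CPM in fed 8-day, 15.7 in fed 28-day, 1.91 in fasted 8-day and 2.47 in fasted 28-day livers. TRINITY_DN14669_c2_g2_i15_4 was at 65.9, 68.3 and 87.2 CPM in fed 8-day and 45.3 to 92.3 in the other libraries. It was 0.52 ± 0.15 lower in fasted 8-day and 0.51 ± 0.15 higher in fed 28-day livers on the log2 scale (edgeR adjusted p = 0.0259 and 0.0275). Both calls were lost in some of the fits that left out 1 library (3 and 5 of 12): the first without fed 8-day replicate 3 or fasted 8-day replicate 2 or 3, the second without fed 8-day replicate 1 or 2 or any fed 28-day replicate. Over their alternatives the adjusted p was 0.00129 to 0.115 and 0.00441 to 0.388.

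Other partners ran opposite to the set. Like the partners just above, they were named for a high level in the other groups, which favours this direction. Their calls therefore say nothing about partners in general. TRINITY_DN14666_c0_g9_i3_4 (1240 nucleotides), from the cluster of the feature seen in fed 8-day livers alone, was at 239, 260 and 251 CPM there, 588, 305 and 540 in fasted 8-day and 473, 596 and 704 in fed 28-day libraries. It was higher by 1.49 ± 0.33 on the log2 scale in fed 28-day livers (edgeR adjusted p = 0.00663). In fasted 8-day livers it was higher by 1.003 ± 0.326 (edgeR adjusted p = 0.044), a call that was lost in 9 of the 12 fits that left out 1 library (over all alternatives 0.000443 to 0.196). TRINITY_DN16645_c0_g4_i3_3 (4155 nucleotides) was at 22.8, 27.9 and 19.2 CPM in fed 8-day libraries, 55.3, 54.5 and 49.8 in fasted 8-day and 32.7, 38.4 and 41.8 in fed 28-day ones (1.22 ± 0.16 and 0.95 ± 0.16, edgeR adjusted p = 0.000289 and 0.00143). Its neighbour in the set, TRINITY_DN16645_c0_g3_i1_3, went from 65.7 CPM in fed 8-day to 0.506 to 0.693 in the other groups.

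In 2 clusters a feature of the set and a partner, among several partners there, changed places. These were chosen after their values were seen, for partner levels in the other groups far above those in fed 8-day livers. The calls of the 2 partners below are on that same difference, so they describe the choice and are no test of it. TRINITY_DN16787_c0_g1_i1_3 (726 nucleotides) was at 80.7 CPM in fed 8-day livers and at 1.7 to 2.59 in the other groups, while its partner TRINITY_DN16787_c0_g4_i1_3 (918 nucleotides) was at 1.91, 1.42 and 2.22 CPM in fed 8-day libraries and at 24.9 to 58.9 in the other 9. The partner was higher by 4.06 ± 0.31 in fasted 8-day and by 4.72 ± 0.32 in fed 28-day livers on the log2 scale (edgeR adjusted p = 9.02e-06 and 3.66e-06). TRINITY_DN16844_c2_g2_i1_3 (1475 nucleotides) was at 50.3 CPM in fed 8-day livers and at 0.859 to 1.76 elsewhere. Its partner TRINITY_DN16844_c2_g5_i1_3 (1331 nucleotides) was at 3.04, 2.63 and 2.08 CPM and at 14.5 to 30.6 in the other 9 (2.70 ± 0.27 and 3.37 ± 0.27, edgeR adjusted p = 4.45e-05 and 1.17e-05). In both pairs the partner kept these calls in all 21 alternatives, which the choice by the same difference made likely. Other partners of these clusters did not run opposite to the set in this way. TRINITY_DN16844_c2_g6_i1_3 was at 25 CPM in fed 8-day livers and at 4.13 to 9.49 in the other groups. TRINITY_DN16844_c2_g1_i10_3 was at 22.9 CPM and at 19.8 to 39. The further partners of TRINITY_DN16787_c0_g1_i1_3 had means of at most 7.85 CPM in every group.

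**Figure D5:**
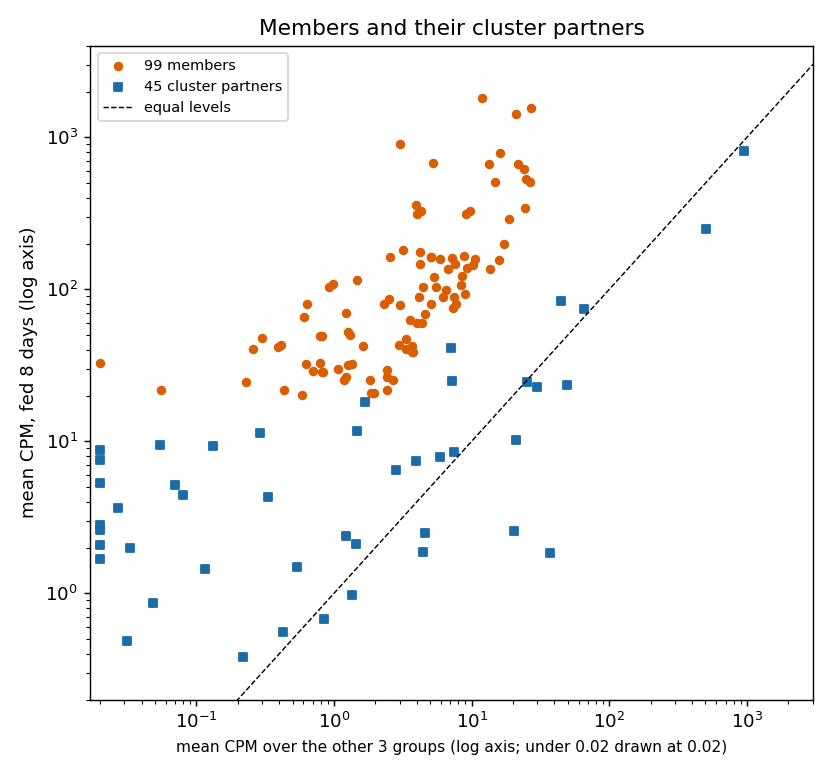
Mean CPM in fed 8-day livers (vertical) against the mean over the other 3 groups (horizontal) for the 99 features and their 45 cluster partners, on log axes; values under 0.02 are drawn at 0.02 and the broken line marks equal levels. Most partners lie on the same side of the line as the set, and TRINITY_DN16787_c0_g4_i1_3 and TRINITY_DN16844_c2_g5_i1_3 lie far on the other side.

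Summed over the contigs of a cluster, the difference often shrank. Partners lie outside the set by definition, so any steady or opposite partner lowers the ratio of the sum, whatever its relation to the member. Each contig has its own g number, so a sum may join different genes. Whether reads were divided between the contigs was not tested. Of the 21 clusters with partners, 11 still met the limit of 1/8 in all 3 groups as totals and 10 did not. In 6 of these 10 the fed 8-day total was under 2 times the highest other total. With its partners the cluster of TRINITY_DN14509_c1_g2_i3_4 had 974 CPM in fed 8-day livers and 902 to 1008 in the other groups. The cluster of TRINITY_DN16787_c0_g1_i1_3 had 94.4 CPM and 47.1 to 58.8, and that of TRINITY_DN16844_c2_g2_i1_3 101 CPM and 47.9 to 70.3. For the features without a partner no such sum could be made, and whether contigs under other identifiers share their sequence was not tested.

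The same rule, with another group in the place of the fed 8-day one, found 11 features for fed 28-day, 0 for fasted 8-day and 0 for fasted 28-day livers. Of those 11, 1 ended in 3 and 2 in 4, and 4 each ended in 1 and 2.

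The set had no sharp edge. Of the 3307 features at 20 CPM or more in fed 8-day livers, 233 were at most 1/8 of that in fasted 8-day, 230 in fasted 28-day and 204 in fed 28-day livers. Both fasted groups met this in 196 and all 3 groups in 108, of which 9 overlapped with a library of another group. Just inside the level of 20 CPM lay TRINITY_DN10078_c0_g1_i1_3 with 20.2 and TRINITY_DN12290_c0_g1_i3_3 with 20.7 CPM, and just outside TRINITY_DN2845_c0_g1_i1_3 with 19.8498 and TRINITY_DN10204_c0_g1_i1_2 with 19.8442. By ratio to the next group mean, TRINITY_DN13717_c0_g1_i7_4 (8.1) and TRINITY_DN9793_c0_g1_i1_3 (8.35) were the last inside, and TRINITY_DN15104_c0_g1_i3_3 (7.93) and TRINITY_DN15904_c0_g1_i9_3 (7.88) the first outside. By overlap, TRINITY_DN6664_c0_g1_i1_4 and TRINITY_DN16839_c6_g2_i4_3 were the last inside, with lowest fed 8-day libraries at 111 and 9.07 CPM over highest others at 73.1 and 4.38. TRINITY_DN5403_c0_g1_i2_4 and TRINITY_DN8379_c0_g1_i1_3 were the first outside, with 4.32 and 13.6 CPM under highest others at 4.68 and 16.3.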

How the data were processed

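RNA sequencing of liver was analysed in 12 libraries, 3 in each of 4 groups taken from the sample titles. Stranded mRNA libraries were made from RNA with an integrity number of at least 7 and read in pairs of 125 or 150 nucleotides, per the labels' protocols, which name 2 instruments without saying which library ran on which. Trimmomatic and Bowtie2 are named, per the submitters' processing notes. Assembly and quantification of the contigs are described nowhere in the labels. The authors deposited estimated counts per feature, which are not whole, and FPKM values. Feature lengths were recovered from the ratio of both units and came out whole, within 0.02 nucleotides, for 100% of features.

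CPM in the text is the estimated count divided by the library total, which is the scale of the rule. For tests the counts were rounded, filtered with filterByExpr by group (32212 features kept, 10141 left out), TMM-scaled (factors 0.835 to 1.22) and fitted by edgeR 4.0.16 under R 4.3.3 with a mean for each of the 4 groups, using robust quasi-likelihood F tests and Benjamini-Hochberg adjustment over all features tested, at an adjusted p under 0.05. Approximate standard errors were derived as the log2 fold change over the root of F. The test was checked on simulated counts. The 12 within-group pairs of libraries differed by 12.3 to 65.7 chi-square units per feature, so no library was treated as a copy of another. Whether the libraries came from separate fish cannot be told from this, and all were counted as separate samples. Intervals of counting error are not given; a value of 0 can be up to 3 counts.

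The rule for the set and the lists were chosen with earlier results of these data known. Features named were, by rule, the 12 highest in CPM, up to 3 without a count elsewhere, the 2 highest of each last number, the 3 highest in FPKM, the 2 nearest to each threshold on either side, up to 3 called with the largest change in each direction of a tested contrast and the 4 partners highest in the other groups. No Trinity gene held more than 1 member, so that part of the rule named none. The pairs sharing a cluster, the members behind a printed count and the features said to be chosen late were named outside the rule. The planned definition of a partner (same Trinity gene) found none and was widened to the cluster. Alternatives were other scalings, filters and thresholds, DESeq2 (version 1.42.0), limma (3.58.1) on FPKM in log2 after adding 1 or 0.1, the replicate number as a block, leaving out each library, and, added later, leaving out 3 fasted libraries together and filtering without the fed 8-day (or on the 28-day) libraries.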

Additional observations from a re-analysis of the deposited data

Results flagged for a closer look

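In 4 cluster partners of the set the effect of fasting (fasted minus fed, log2) differed between 28 and 8 days by the edgeR test of that difference, adjusted over all features, which 14.4% of all features tested passed. The difference was examined only for the 4 partners highest in the other groups and the partners that changed places with a feature of the set. Of these, TRINITY_DN14509_c1_g1_i7_4 and TRINITY_DN14669_c2_g2_i15_4 did not pass. All were named for their levels in the other groups or after their values were seen. A low level in fed 8-day livers alone fixes the sign of the difference, so the number that passed says nothing about partners in general. The difference was -4.45 ± 0.40 (SE) for TRINITY_DN16787_c0_g4_i1_3 (edgeR adjusted p = 6.82e-05) and -3.08 ± 0.36 for TRINITY_DN16844_c2_g5_i1_3 (edgeR adjusted p = 0.000343), and both passed in all 21 alternatives. It was -1.76 ± 0.46 for TRINITY_DN14666_c0_g9_i3_4 (edgeR adjusted p = 0.0277), lost in 9 of the 12 fits that left out 1 library (over all alternatives 0.00288 to 0.0762). It was -0.95 ± 0.23 for TRINITY_DN16645_c0_g4_i3_3 (edgeR adjusted p = 0.0185), lost in 4 of those fits (0.000811 to 0.242 over all alternatives). In each of them the 8-day effect is set against the fed 8-day libraries, which stood apart from the other 9, and the part of those libraries in the difference was not tested.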

How the results depend on the processing

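The rule found 288 features with a fold of 4, 48 with a fold of 16 and 64 with a minimum of 50 CPM, in place of 99; it found 91 with TMM-scaled CPM (90 of them among the 99), 106 with FPKM (84 among them) and 94 to 124 without each library in turn, the highest without fed 8-day replicate 3. The 27 calls between the 28-day groups stayed within 1.5 times in all alternatives. They numbered 20 to 29 without each library and 29 with the replicate block. The share of all features called in either direction was 5.03% to 10.4% without each library and 8.95% with the block. It was 9.92% as reported and ran from 3.02% to 16.9% over all alternatives. Between the fasted groups 0 to 1 feature was called without each library and 1 with DESeq2. At an adjusted p under 0.01, 17 partners in place of 28 were called at 8 days and 14 in place of 22 between the fed groups. Of all features tested, 14.6% and 15.2% were called at that threshold. Without each library the partner counts were 22 to 29 and 17 to 23, and with the replicate block 24 and 17. The shares of all features were 18.1% to 23.7% and 19.3% to 26.3% without each library, and 23.7% and 25.3% with the block. Counting only partners that passed the filter without the fed 8-day libraries, chosen after seeing the data, left 15 and 10 of 28 tested. All the calls lost were lower ones: 23 and 17 lower became 10 and 5, while 5 stayed higher in each comparison. The partners left out had passed only through the fed 8-day libraries and could hardly be called other than lower. The cause of the other changes was not tested. With library size alone the median change over all features (log2) between the 28-day groups moved from 0.10 to 0.45. On that scale 21 features of the set were lower and 4 higher, and 11.3% of all features were called in either direction. Same-numbered libraries deviated together by r over 0.1 in 2 of 18 pairs (-0.235 to 0.298). Pairs of unlike number were not compared, so this cannot tell whether the numbers pair the libraries. For single features, 65 of 609 alternative values lost a call, 2 gained one and 0 reversed. Depth limits the features at a few counts, whose folds are uncertain.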
